A study of Mus musculus with 4 samples.

Results

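The 10 genes described here encode the steps by which a fatty acid enters a heart muscle cell and its mitochondria. Lpl, Cd36, Slc27a1 and Fabp3 act in release, uptake and transport of fatty acids, Acsl1 activates them, and Slc22a5, Cpt1a, Cpt1b, Cpt2 and Crat supply carnitine or move acyl groups on and off it. They were chosen by symbol, as a fixed list, and all 10 were among the 23337 genes listed. Each was measured in 4 RNA-seq libraries of mouse heart. The control libraries were made from PIMT fl/fl mice, whose PIMT gene carries loxP sites, and the mice were 2 or 6 months old. Floxed mice of the same ages gave the csPIMT-/- libraries and also carried Cre recombinase under the promoter of the α-myosin heavy chain gene, so that PIMT was deleted in cardiomyocytes and not by design in the other cells of the heart. All mice were of the C57BL6/J strain and untreated, and each library held pooled RNA of 5 hearts of both sexes. There was therefore 1 library for each genotype and age, and the spread between hearts of a group was not measured.

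A working heart takes most of its fuel as fatty acids. Lipoprotein lipase frees them from triglyceride at the vessel wall, and CD36 and fatty acid transport proteins help them across membranes. A cytosolic binding protein carries them, and an acyl-CoA synthetase traps them as acyl-CoA. Long-chain acyl-CoA cannot cross the inner mitochondrial membrane, so a carnitine palmitoyltransferase of the outer membrane transfers the acyl group to carnitine and CPT2 returns it to CoA inside. PPARα, a nuclear receptor that binds fatty acids, is known to drive many of these genes, and PIMT binds a coactivator of such receptors.

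The values were the authors' normalized counts, which are reads per gene divided by a size factor for each library. One read was worth between 0.865 and 1.23 normalized counts, and 29823073 to 40705783 reads on genes lay behind each library. A ratio is that of csPIMT-/- over PIMT fl/fl of the same age, and its 95% Clopper-Pearson interval covers counting error only, since PCR copies were not told apart and the hearts were pooled. PIMT itself, listed as Tgs1, had 579.8 and 816 normalized counts in the 2- and 6-month controls and 160.3 and 162 in the csPIMT-/- libraries. Its level was lower in both libraries labelled csPIMT-/-, with ratios of 0.276 (0.227 to 0.334) and 0.199 (0.167 to 0.236). These counts are of the whole gene, not of the deleted part alone.

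A feature of all genes touched the ratios of these 10. In both ages genes with AT-rich transcripts had low ratios and genes with GC-rich transcripts high ones. Spearman's rho between ratio and GC content was 0.58 over 14964 genes at 2 months and 0.61 over 15028 at 6 months. The median ratio of genes under 40% GC was 0.333 at 2 months and 0.321 at 6 months, and that of genes of 56% GC or more was 1.68 and 1.69. Cd36 was the poorest in GC of the 10, at 38.4%, and Slc27a1 the richest, at 56.9%. PIMT itself, at 41.95% GC, had ratios of 0.5999 and 0.493 with the trend subtracted. The ratios of the 10 genes are therefore given also with this trend subtracted, and the part of the trend in the results was not tested.

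Of the 10 genes, Cd36 was the lowest in csPIMT-/- hearts relative to control, at both ages. Cd36, Acsl1, Cpt1a and Slc22a5 had lower levels in both csPIMT-/- libraries than in both controls, and Slc27a1 had higher levels. Cpt2 and Crat were close to control at 2 months and lower at 6 months, and Lpl was above its control at 2 months and below it at 6 months. Fabp3 was slightly above control at both ages, and Cpt1b was low in every library. At 2 months 1 of the 10 genes, Cd36, had a ratio below 0.5, as had 22.5% of the 15152 genes compared, and 0 had a ratio above 2, against 17.3%. A ratio below 1 was found in 7 of the 10 at 2 months and in 7 at 6 months, against 50.1% and 49.9% of all genes. At 6 months Cd36 and Acsl1, 2 of the 10, were below 0.5, against 24.9% of 15218 genes, and 0 were above 2, against 16.9%. Cd36 was below 0.5 at both ages, as were 16.0% of the 14781 genes compared at both, and 0 were above 2 at both, against 7.73%. Below 1 at both ages were 6 of the 10, against 39.8%. The shares past 2-fold were thus no larger among the 10 genes than among all genes. The 4 genes with both csPIMT-/- libraries below both controls compare with 35.9% of all genes, and the 1 gene above both with 35.2%.

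**Figure D1:**
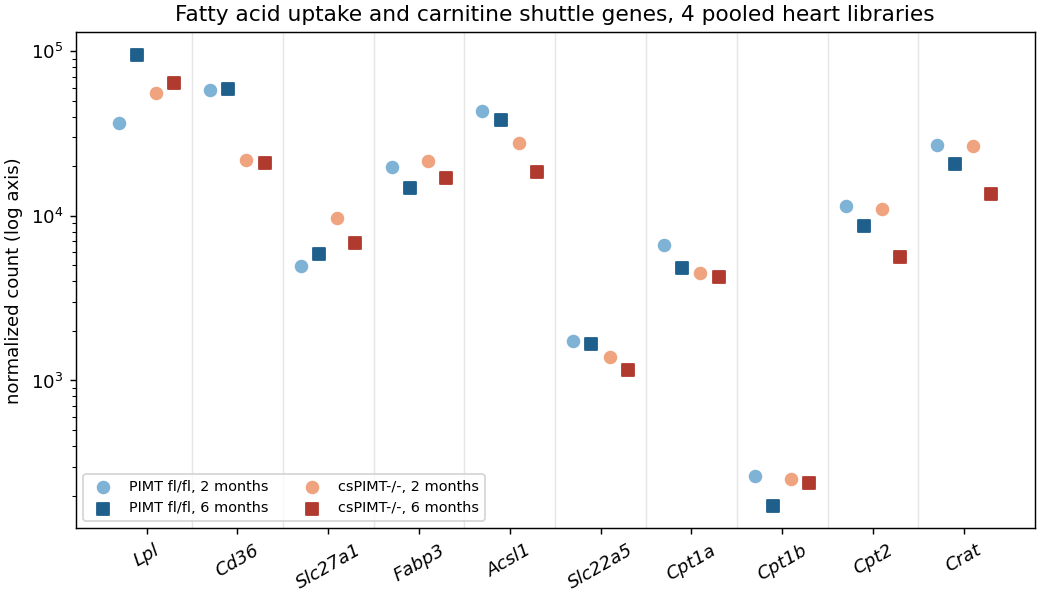
Normalized count (log axis) of each of the 10 genes in the 4 libraries, 1 point per pooled library of 5 hearts, with light circles for 2 months, dark squares for 6 months, blue for PIMT fl/fl and red for csPIMT-/-. Cd36 sat at 57866 and 59323 in the controls and at 21937 and 20895.5 in csPIMT-/- hearts, and Cpt1b lay between 173 and 261 in all 4.

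Cd36, the membrane protein that takes up long-chain fatty acids in muscle, endothelium and macrophages, is encoded at chr5:17781690-17888801 on the minus strand (GRCm38). Its level was 57866 and 59323 normalized counts in the 2- and 6-month controls and 21937 and 20895.5 in csPIMT-/- hearts. The 2 libraries of each genotype lay close together, and the genotypes were far apart. The ratio was 0.379 (0.373 to 0.385) at 2 months and 0.352 (0.347 to 0.358) at 6 months. In the limma fit over both ages, with genotype and age as terms and the variance borrowed across genes, Cd36 fell by 1.45 on the log2 scale (SE 0.228, adjusted p = 0.0193). It was the 1 member of 10 called lower, against 17.5% of 14847 genes, and 0 of 10 were called higher, against 11.0%. At an unadjusted p below 0.05 limma likewise had 0 of 10 higher, against 3066 of 14847 genes. Cd36 and Acsl1 were lower at that threshold, as were 3663 of all genes. edgeR and DESeq2 called 0 of 10 higher, against 11.0% and 14.8% of all genes. On the recovered reads edgeR gave Cd36 an adjusted p of 0.0183 and DESeq2 one of 1.057e-05. In limma without a mean trend of the variance the adjusted p of Cd36 was 0.0679. Without the 6-month control and with genotype as the only term it was 0.0544. After subtraction of the GC trend its difference was 0.15 (adjusted p = 0.689). With the trend subtracted the ratios of Cd36 were 1.12 and 1.11, so that Cd36 lay slightly above the level typical of a gene of its GC content.

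In rank, Cd36 was 39th of the listed genes by normalized count in both controls and 225th and 239th in the csPIMT-/- libraries. Endothelial markers did not share 1 direction. The sum of the 10 endothelial genes was 89210.5 and 72904 in the controls and 93899 and 112133 in csPIMT-/- hearts, with Vwf making up much of the difference. Without Vwf the other 9 summed to 80778 in the 2-month control and 64922 in the csPIMT-/- heart of that age, and to 61167 and 74081 at 6 months. Of the 10 genes 6 were below control at 2 months and 3 at 6 months, and Pecam1 was 12451 and 9562 in the controls against 10444 and 12059. The 12 cardiomyocyte genes summed to 3639070.0 and 4116610.0 in the controls and to 2977550.0 and 2209430.0 in csPIMT-/- hearts, a difference carried largely by Ttn. Without Ttn the other 11 summed to 1770248 and 1668530.0 in the controls and 1908226 and 1496105 in csPIMT-/- hearts, and 5 of the 12 were below control at 2 months and 7 at 6 months. The macrophage and leukocyte genes, of which 11 were listed, summed to 11764 and 28696 in the controls and 37240 and 52778 in csPIMT-/- hearts. At 2 months 10 of them were above control and 1 below, and at 6 months 8 were above and 3 below. The part of these markers in the result was not tested. In pooled tissue RNA fewer cells of a type and less RNA per cell cannot be told apart.

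Cd36 and Acsl1 were the genes past 2-fold lower at either age, and the 250 bases before a start site of each are shown for that reason, from RefSeq on GRCm38.p6. The windows run 5′ to 3′ on the gene's own strand, chr5:17835897-17836146 on the minus strand for Cd36 and chr8:46470787-46471036 on the plus strand for Acsl1. Capitals mark GGGCGG, the GC box, or AGGTCA, a core site of many nuclear receptors, on either strand.
Cd36: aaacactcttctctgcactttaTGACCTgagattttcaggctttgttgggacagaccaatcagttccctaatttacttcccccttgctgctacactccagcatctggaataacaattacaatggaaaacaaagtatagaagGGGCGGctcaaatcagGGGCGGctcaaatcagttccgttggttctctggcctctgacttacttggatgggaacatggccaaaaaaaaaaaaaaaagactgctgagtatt
Acsl1: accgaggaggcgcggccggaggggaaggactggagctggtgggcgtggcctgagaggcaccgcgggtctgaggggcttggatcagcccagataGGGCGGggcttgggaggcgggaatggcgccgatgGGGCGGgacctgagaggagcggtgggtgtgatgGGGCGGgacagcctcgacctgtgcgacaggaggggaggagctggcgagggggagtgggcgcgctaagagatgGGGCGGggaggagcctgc
The Cd36 window was 43.2% GC with 2 GC boxes and 1 such core site, read on the other strand as TGACCT, while that of Acsl1 was 72.0% GC with 4 GC boxes and no core site. A second Acsl1 window, chr8:46490716-46490965, not shown, was 48.4% GC with 0 GC boxes and 0 core sites. The bases just after the start of this Cd36 window were not found in any GENCODE transcript of Cd36. The window also lies inside the span given above for the gene, not at its upstream end.

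Windows were at hand for 7 of the 10 genes, 10 windows in all. AGGTCA was found in 2 of these 10 windows, those of Cd36 and Cpt1a, against 14.0% of all 32851 windows, and GGGCGG in 7, against 32.7%. Slc27a1 entered these 7 with more than 1 window. The median GC content of all windows was 52.4%, and the 10 ranged from 43.2% (Cd36) to 73.6% (Slc22a5). The part of GC content in the share with GGGCGG was not tested. A relaxed form of the PPAR response element, the direct repeat of such sites with 1 base between them, was in 0 of the 10 windows and in 0.338% of all, and TCAAGGTCA, a form of the site of estrogen-related receptors, in 0 and in 0.387%. Both strands were searched, AGGTCA lies within TCAAGGTCA, and 1 gene can have several windows.

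Lpl encodes lipoprotein lipase (chr8:68880491-68907448, plus strand), which hydrolyses circulating triglyceride at the endothelial surface of heart, muscle and fat. Its level was 36798 normalized counts in the 2-month control, 95139 in the 6-month control, 55553 in the 2-month csPIMT-/- heart and 64552 in the 6-month csPIMT-/- heart. The csPIMT-/- libraries thus lay between the controls. The ratio was 1.51 (1.49 to 1.53) at 2 months and 0.679 (0.672 to 0.685) at 6 months, opposite in direction. This order, above 1 and then below 1, was found in 10.4% of genes, and the reverse order in 10.5%. Of the 10 genes Lpl differed most between the controls themselves, with 2.59 times (2.56 to 2.61) the count at 6 months, a step past 2-fold that 9.01% of genes showed. It was the 1 gene of the 10 with this step, and 0 of the 10 were below 0.5 between the controls, against 4.65%. Against the control of the other age both directions turned, to 0.584 for the 2-month csPIMT-/- heart and 1.75 for the 6-month one. After subtraction of the GC trend the ratios to the control of the same age were 2.81 and 1.44, both above 1. Over both ages the limma difference was 0.02 (SE 0.357, adjusted p = 0.973).

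Lpl is strongly expressed in fat and its level stood beside markers of other tissue in the libraries. Adipoq, the adipocyte hormone gene, had 5.19 and 453 normalized counts in the 2- and 6-month controls and 1830 and 298 in the csPIMT-/- libraries. Plin1, the coat of fat droplets, had 3.46 and 341 against 1586 and 136, and Ucp1 of brown fat 8.65 and 93.2 against 1766 and 12.5. The 2-month control was thus lowest in Lpl, Adipoq, Plin1 and Ucp1, but the highest library was the 6-month control for Lpl and the 2-month csPIMT-/- heart for the 3 markers. All 10 white adipocyte genes had reads in every library except Lep and Retn, at 0 in the 2-month control, and their sum was 23562 and 25238 in the controls and 51633 and 40935 in csPIMT-/- hearts. Plin4, Pnpla2 and Lipe made up most of these sums. The other 7 summed to 120.3 in the 2-month control and 18955 in the 2-month csPIMT-/- heart, where all 7 were higher, and to 5378 and 2876 at 6 months, where all 7 were lower in csPIMT-/-. The sum over 10 brown adipocyte genes was 26569.8 and 25666 against 46112 and 32457. Otop1 and Zic1 were at 0 in the 2-month control, Elovl3 and Zic1 in the 6-month control and Zic1 in the 6-month csPIMT-/- library. Cox8b (10438 and 10564 against 18321 and 14412) and Cox7a1 (12330.5 and 12442 against 22197 and 14570) made up most of these sums. At 2 months 8 of the 10 were above control and 2 below. At 6 months 6 were above, and the 3 below were Ucp1, Otop1 and Ppargc1b. Several genes of both lists are also expressed by heart muscle.

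Atrial genes differed between the libraries as well. Myl4, the atrial light chain, had 1379 and 23002 normalized counts in the controls and 68851 and 18281 in csPIMT-/- hearts, and 7 atrial genes summed to 42084 and 124562 against 343104 and 352869. Without Nppa, which is also a marker of heart failure, the other 6 summed to 3902 and 53902 in the controls and 141925 and 32572 in csPIMT-/- hearts, and 5 of the 6 were below control at 6 months. The 9 skeletal muscle genes summed to 23573 and 24513 against 122489 and 94656, nearly all of it Acta1, and without Acta1 to 750.2 and 237 against 343 and 544. Of the other lists, the 10 lung genes, of which 4 and 6 had reads in the controls, summed to 64.9 and 39.6 against 1322 and 132. The part of these in the levels of Lpl and the other genes was not tested.

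**Figure D2:**
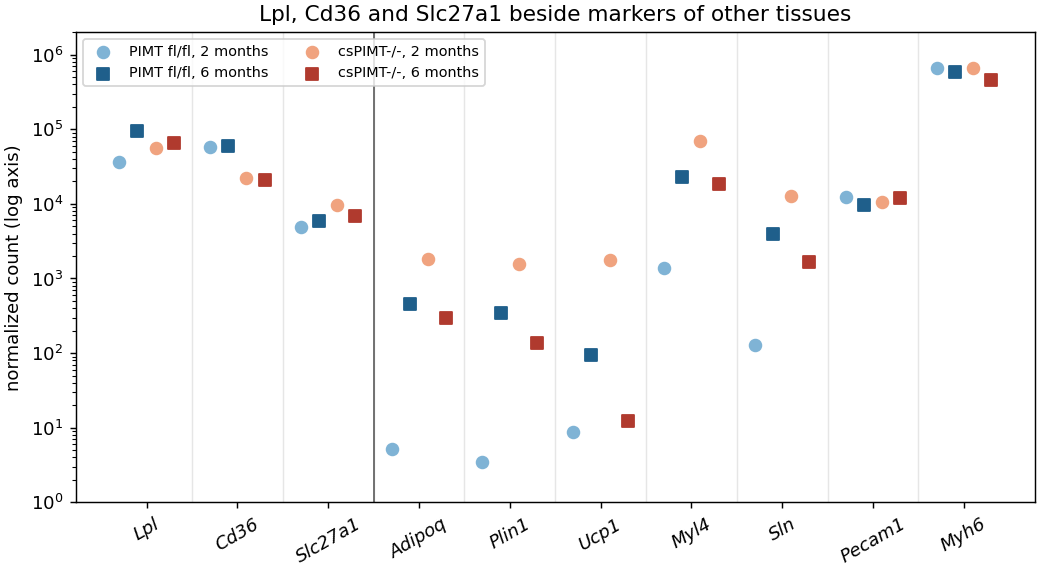
Normalized count (log axis) of Lpl, Cd36 and Slc27a1, left of the vertical line, and of markers of adipocytes (Adipoq, Plin1, Ucp1), atrium (Myl4, Sln), endothelium (Pecam1) and cardiomyocytes (Myh6), 1 point per pooled library. The 2-month control held 5.19 counts of Adipoq and the 2-month csPIMT-/- library 1830, while Pecam1 lay between 9562 and 12451.

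Slc27a1 encodes fatty acid transport protein 1 (chr8:71568882-71587302, plus strand), a membrane protein with acyl-CoA synthetase activity. It had 4959 and 5826 normalized counts in the controls and 9693 and 6815 in csPIMT-/- hearts, so both csPIMT-/- libraries were above both controls. The ratio was 1.95 (1.89 to 2.02) at 2 months and 1.17 (1.13 to 1.21) at 6 months. The limma difference was 0.60 (SE 0.256, adjusted p = 0.136) and did not pass. With the GC trend subtracted the ratios were 1.23 and 0.729, the second of them below 1.

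Fabp3, the heart form of the cytosolic fatty acid binding proteins (chr4:130308595-130315463, plus strand), had 19769 and 14795 normalized counts in the controls and 21635 and 17077 in csPIMT-/- hearts. The genotypes overlapped. Its ratio was 1.09 (1.07 to 1.12) and 1.15 (1.13 to 1.18), or 0.784 and 0.797 with the GC trend subtracted, and the limma difference was 0.17 (SE 0.209, adjusted p = 0.563). The count of Cd36 relative to Fabp3 was 2.93 and 4.01 in the controls and 1.01 and 1.22 in csPIMT-/- hearts, while Cd36 relative to Fabp4 was 5.62 and 5.97 against 6.80 and 6.32. These pairs were chosen after their values were seen.

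Acsl1 encodes the main long-chain acyl-CoA synthetase of the heart (chr8:46471037-46536051, plus strand). Its level was 43428 and 38476 normalized counts in the controls and 27517 and 18351 in csPIMT-/- hearts. Both csPIMT-/- libraries lay below both controls, the 6-month one furthest. The ratio was 0.634 (0.624 to 0.644) at 2 months and 0.477 (0.469 to 0.485) at 6 months. The limma difference of -0.86 (SE 0.24) had an adjusted p of 0.0528, which misses 0.05, while DESeq2 gave 0.0162. Without the 2-month csPIMT-/- library and with genotype alone, limma gave 0.0391. With the GC trend subtracted the ratios were 1.04 and 0.868, and the limma difference was -0.07 (adjusted p = 0.867). Its transcript was 44.8% GC.

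**Figure D3:**
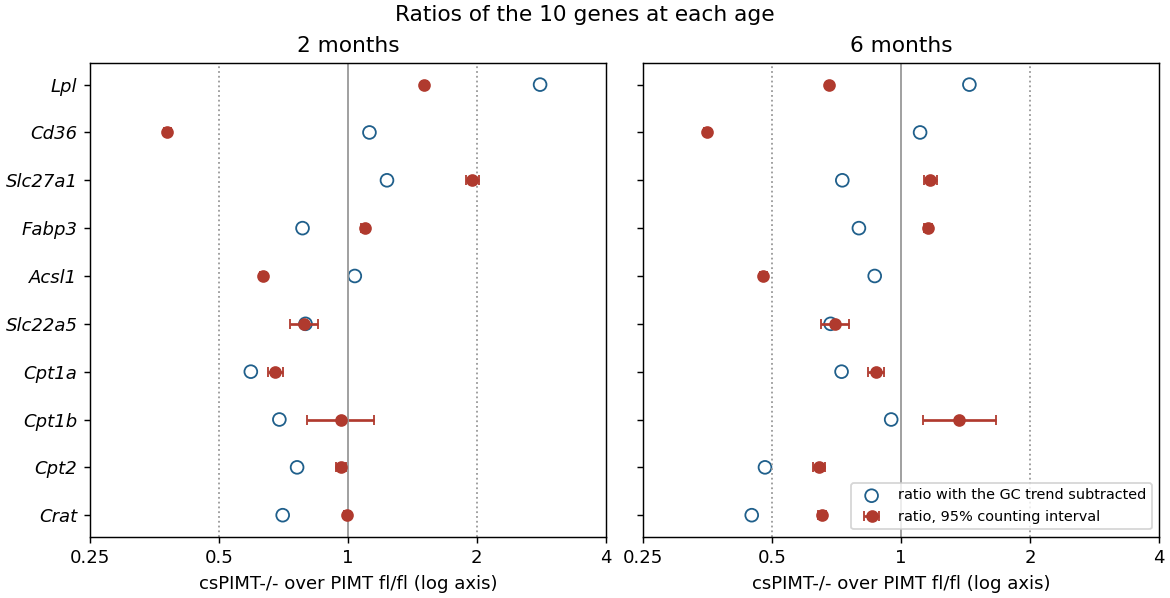
Ratio of csPIMT-/- over PIMT fl/fl (log axis) for each gene at 2 and 6 months. Filled points carry the 95% counting interval, open circles are the ratio after the trend on GC content was subtracted, and dotted lines mark 0.5 and 2. Cd36 moved from 0.379 to 1.12 at 2 months, whereas Slc22a5 stayed at 0.790 and 0.796.

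Slc22a5 encodes OCTN2, the carnitine transporter of the cell membrane (chr11:53864542-53891660, minus strand). It had 1745 and 1657 normalized counts in the controls and 1379.6 and 1164 in csPIMT-/- hearts, a small difference that left both csPIMT-/- libraries below both controls. The ratio was 0.790 (0.734 to 0.851) and 0.703 (0.652 to 0.757). The limma difference was -0.42 (SE 0.218, adjusted p = 0.194). At 49.8% GC its ratios with the trend subtracted were 0.796 and 0.685, the least moved of the 10. Its paralogs Slc22a4 and Slc22a21 were counted separately and went the other way. Slc22a4 had 194.7 and 220.7 normalized counts in the controls and 387 and 1515 in csPIMT-/- hearts, with ratios of 1.99 and 6.86. The limma difference of Slc22a4 was 1.88 (SE 0.489, adjusted p = 0.0454). Slc22a21 was low in every library and had ratios of 1.58 and 1.97. Reads could be split between the paralogs, which was not tested.

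Cpt1a and Cpt1b encode the liver and muscle forms of the outer-membrane transferase, the step that malonyl-CoA inhibits. Cpt1a (chr19:3322334-3385733, plus strand) had 6684 and 4835 normalized counts in the controls and 4522 and 4228 in csPIMT-/- hearts. Both csPIMT-/- libraries were below both controls, though the 6-month control was close to them. The ratio was 0.677 (0.650 to 0.704) at 2 months and 0.874 (0.839 to 0.911) at 6 months, and the limma difference was -0.38 (SE 0.212, adjusted p = 0.225). After subtraction of the GC trend the ratios were 0.593 and 0.726.

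Cpt1b (chr15:89416405-89425863, minus strand) had 261 and 173 normalized counts in the controls and 252 and 237 in csPIMT-/- hearts. The genotypes overlapped. The ratio was 0.962 (0.802 to 1.15) at 2 months, an interval that holds 1, and 1.37 (1.13 to 1.67) at 6 months, an order found in 10.5% of genes. Less the GC trend the ratios were 0.692 and 0.948, both below 1, and against the control of the other age they were 1.45 and 0.908. The limma difference was 0.20 (SE 0.347, adjusted p = 0.684). The level of Cpt1b is uncertain, because 81.4% of its exonic bases are shared, on the same strand, with a read-through gene of Chkb and Cpt1b, and counting can drop reads that fit both. That gene was listed at 0 in all 4 libraries. Per kilobase of transcript, Cpt1a made up 94.5% (93.9 to 95.1) and 94.9% (94.2 to 95.6) of Cpt1a plus Cpt1b in the controls and 92.3% (91.3 to 93.3) and 92.3% (91.3 to 93.2) in csPIMT-/- hearts. These shares rest on the same uncertain count.

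The first 90 coding bases of both genes, from GENCODE M21, show how far reads of one can be told from reads of the other. Capitals mark the 25 positions that differ.
Cpt1a: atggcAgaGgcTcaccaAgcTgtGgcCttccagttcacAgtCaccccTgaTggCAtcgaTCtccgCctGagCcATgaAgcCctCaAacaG
Cpt1b: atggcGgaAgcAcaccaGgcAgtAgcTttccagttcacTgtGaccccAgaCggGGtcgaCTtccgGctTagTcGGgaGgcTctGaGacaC
Over the 2279 aligned coding bases the genes were 69.0% identical, and the longest identical stretch was 20 bases, shorter than a read. Reads of Cpt1a and Cpt1b can therefore be told apart by sequence, in contrast to those of Cpt1b and the read-through gene.

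Cpt2 and Crat act inside the mitochondrion. Cpt2 (chr4:107903981-107923610, minus strand), which returns long-chain acyl groups from carnitine to CoA, had 11429 and 8732 normalized counts in the controls and 11004 and 5617 in csPIMT-/- hearts. The 6-month csPIMT-/- library was the lowest and the 6-month control came next. The ratio was 0.963 (0.937 to 0.989) at 2 months and 0.643 (0.622 to 0.665) at 6 months. Crat (chr2:30400471-30415813, minus strand), carnitine acetyltransferase, which buffers acetyl-CoA, had 26785 and 20754 against 26659 and 13577. It followed the same order of libraries as Cpt2, with ratios of 0.995 (0.978 to 1.01) and 0.654 (0.640 to 0.668).

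The count of Cpt2 relative to Crat was 0.427, 0.421, 0.413 and 0.414 in the 4 libraries, a pair chosen after its values were seen. Between 2 and 6 months the csPIMT-/- level of Cpt2 changed to 0.510 (0.493 to 0.528) times its value and that of Crat to 0.509 (0.498 to 0.520), against 0.764 and 0.775 in the controls. A ratio below 0.5 between these ages was seen in 8.20% of genes and in 0 of the 10, and one above 2 in 9.71% and in 0 of the 10. Over both ages the limma differences were -0.35 (SE 0.236, adjusted p = 0.305) for Cpt2 and -0.31 (SE 0.251, adjusted p = 0.381) for Crat. With the GC trend subtracted the 2-month ratios were 0.761 for Cpt2 and 0.704 for Crat, the 6-month ratios 0.481 and 0.448, both below 0.5, and the limma differences -0.71 (adjusted p = 0.168) and -0.82 (adjusted p = 0.152).

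The 6-month ratio was lower than the 2-month ratio in 7 of the 10 genes, against 51.8% of all genes. Lpl showed the largest step, a 6-month ratio 0.449 times (0.442 to 0.457) that at 2 months, followed by Slc27a1 with 0.599 (0.570 to 0.628). The step was 0.657 (0.639 to 0.676) in Crat, 0.668 (0.640 to 0.697) in Cpt2 0.753 (0.735 to 0.771) in Acsl1 and 0.889 (0.801 to 0.986) in Slc22a5. Cd36 changed least among the genes with a lower ratio, with 0.929 (0.908 to 0.951), and Cpt1a, Cpt1b and Fabp3 had steps of 1.29, 1.42 and 1.05. With 1 library per group these steps have no replicate check.

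Summed, the 10 genes held 0.608% and 0.698% of all normalized counts in the 2- and 6-month controls and 0.490% and 0.405% in csPIMT-/- hearts. Cd36, Lpl, Acsl1, Crat and Fabp3 made up most of this. The median ratio of the 10 genes was 0.963 at 2 months and 0.691 at 6 months, where that of all genes was 0.999 and 1.003. The 10 genes followed the order of GC content as all genes did, with rho of 0.64 and 0.62 over the 10, which share their libraries. With the GC trend subtracted their median log2 ratio was -0.34 and -0.39, and the genes lowest were then Cpt1a and Cpt1b at 2 months and Crat and Cpt2 at 6 months.

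**Figure D4:**
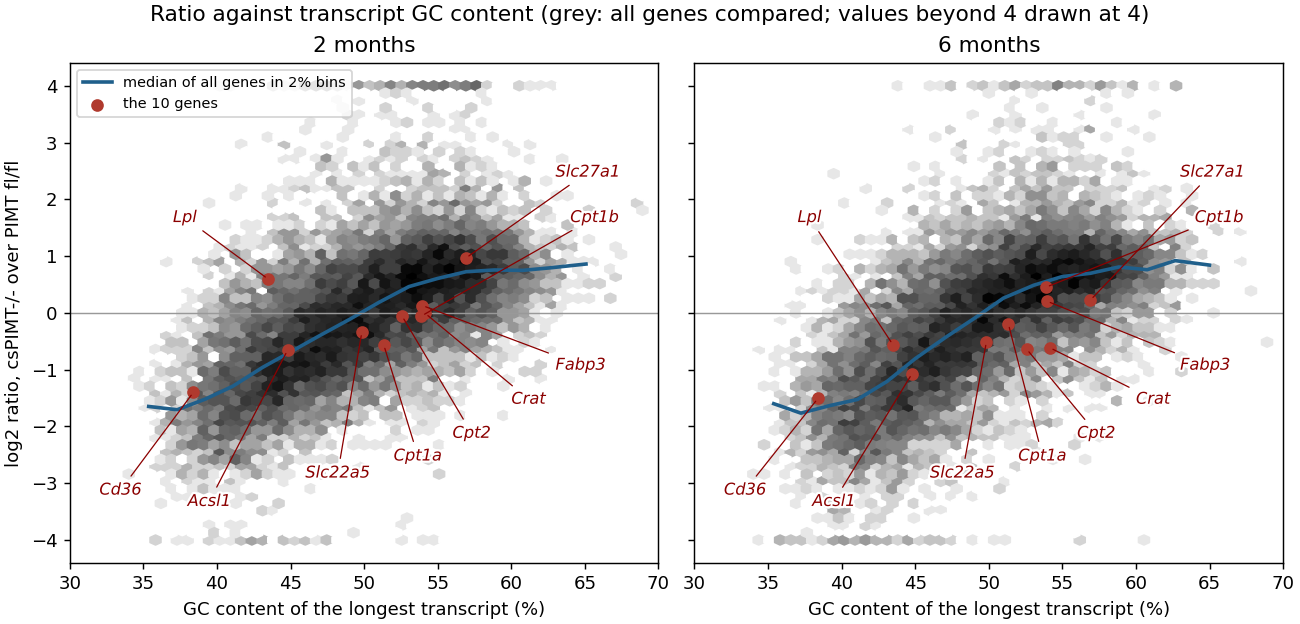
Log2 ratio of csPIMT-/- over PIMT fl/fl against the GC content of the longest transcript (%), at 2 and 6 months. Grey hexagons count all genes compared (log shading; values beyond 4 are drawn at 4), the line is their median in bins of 2% GC, and red points are the 10 genes. Cd36 lies at 38.4% GC close to the line, and Lpl lies above it at both ages.

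Fabp3, Acsl1 and Slc27a1 were each the main form of their family by counts per kilobase. Cpt1a held the largest share of the Cpt1 family, 90.3% and 88.6% in the controls and 83.9% and 82.1% in csPIMT-/- hearts. That share rests on the uncertain count of Cpt1b, so it does not show which form was the main one. Fabp3 held 88.2% and 85.3% of the Fabp transcripts per kilobase in the controls and 92.7% and 94.4% in csPIMT-/- hearts. Fabp4, the form of fat cells and endothelium, held 8.94% and 11.1% against 2.69% and 3.56%. These shares depend on the longest transcript of each gene, 0.823 kb for Fabp3 and 4.231 kb for Fabp4. Without length scaling Fabp3 held 61.53% and 55.93% of the Fabp reads in the controls and 80.03% and 80.12% in csPIMT-/- hearts. Fabp4 then held 32.04% and 37.57% against 11.93% and 15.52%. Acsl1 held 92.0% and 89.1% of the Acsl family in the controls and 91.1% and 88.4% in csPIMT-/- hearts. Slc27a1 held 74.0% and 79.3% against 72.3% and 77.2% of the Slc27a family, in which Slc27a4 was second.

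Lists of 72 other genes of lipid uptake, binding, activation, carnitine supply and malonyl-CoA control were also compared, and 71 were listed. At 2 months 64 could be compared, of which 10 lay below a ratio of 0.5 and 16 above 2. Of all genes 22.5% lay below 0.5 and 17.3% above 2. At 6 months these numbers were 13 and 8 of 61, against 24.9% and 16.9% of all genes. In limma 14 of 61 were called lower and 5 higher, against 17.5% and 11.0% of all genes, and all of these calls were lost with the GC trend subtracted or without a mean trend. Without the 6-month control, with genotype alone, 3 were called lower and 2 higher, against 2.47% and 2.44% of all genes. Without the 2-month control the calls were 7 and 0, against 8.62% and 1.85%, and without the 6-month csPIMT-/- library 7 and 3, against 12.7% and 4.44%. By list, the fatty acid binding proteins had the lowest median ratios, 0.594 and 0.428. That list also held the acyl-CoA binding genes Dbi, Acbd3 and Acbd5, and the Fabp genes alone were not ranked. The fatty acid transport proteins, a list of 5 genes without Slc27a1, had the highest at 2 months, 2.66, and 1.27 at 6 months. Slc27a3, the median gene of that list at 2 months, had 114 reads in the control and 213 in the csPIMT-/- library. Its 2-month ratio was 1.58 with the GC trend subtracted.

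Past 2-fold at both ages with at least 100 reads were 8 of these genes, 7 of them lower. With no minimum above 10 reads, 16.0% of all genes were below 0.5 at both ages and 7.73% above 2, and the 7 lower genes of 61 were no larger a share. Cav1, which forms caveolae, had 18010.3 and 16978 normalized counts in the controls and 5358 and 3521 in csPIMT-/- hearts (limma log2 difference -2.01, adjusted p = 0.0164). Fabp4 had 10296 and 9937 against 3225 and 3308 (-1.63, adjusted p = 0.0164). The ratios were 0.298 and 0.207 for Cav1 and 0.313 and 0.333 for Fabp4. With the GC trend subtracted they were 0.605 and 0.484 for Cav1 and 0.632 and 0.771 for Fabp4. Acsl3, a synthetase of the endoplasmic reticulum and lipid droplets, had ratios of 0.216 and 0.202 and was still at 0.412 and 0.442 with the GC trend subtracted. Prkaa2, the α2 catalytic subunit of AMPK, had ratios of 0.394 and 0.312, or 0.961 and 0.856 with the trend subtracted. Acbd3, Acbd5 and Them4 had ratios between 0.251 and 0.384. With the trend subtracted they were 0.844 and 1.003 for Acbd3, 0.687 and 0.718 for Acbd5, and 0.718 and 0.537 for Them4. Lrp1, a lipoprotein receptor, was the 1 gene above, with 21332 and 27709.8 in the controls, 69851 and 86104 in csPIMT-/- hearts, and ratios of 3.27 and 3.11, or 2.02 and 1.89 with the trend subtracted.

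**Figure D5:**
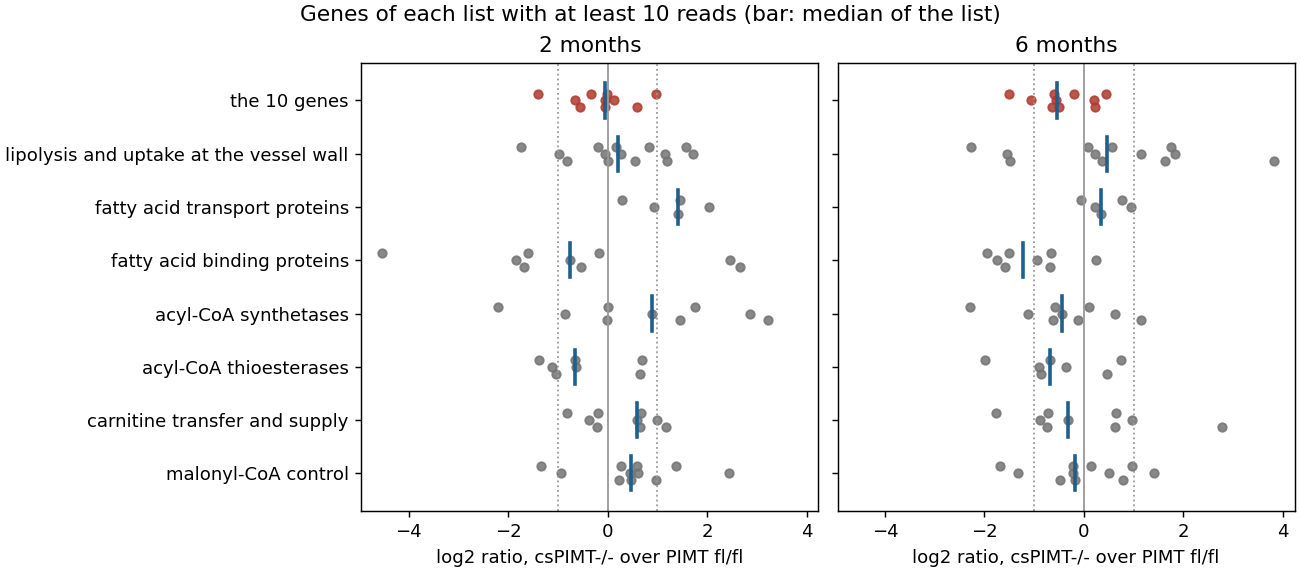
Log2 ratio of csPIMT-/- over PIMT fl/fl at 2 and 6 months for the 10 genes (red) and the genes of 7 other lists (grey), 1 point per gene with at least 10 reads, a bar at each list's median and dotted lines at 2-fold. The medians of the 10 genes correspond to ratios of 0.963 and 0.691.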

How the data were processed

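Reads of oligo-dT enriched heart RNA were, per the labels and the study's methods, trimmed, aligned to mm10 and counted per gene symbol with HTSeq 0.6.1p1, and the authors used DESeq2. The strand and overlap settings of the counting are not given in the sources used here. The deposited signal was normalized counts, and the column of the 6-month csPIMT-/- library, though headed as read counts, held the same kind of value. Dividing by the smallest value above 0 gave whole reads for 100% of values, within 1e-06.

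Ratios used the deposited values, with a minimum of 10 reads in 1 of the 2 libraries, and 0.5 reads were added for log2 ratios. GC content and length were those of the longest GENCODE M21 transcript (GRCm38), found for 98.7% of the genes with 10 reads, and the trend was a lowess curve with a span of 0.3. limma 3.58.1 with a mean trend was run on log2 of the normalized count plus 1, for genes with at least 10 in 2 libraries, with genotype and age as terms. It has 1 residual degree of freedom, so its p-values rest on variance borrowed across genes. The Benjamini-Hochberg adjustment ran over all genes tested. edgeR 4.0.16 and DESeq2 1.42.0 were run on the recovered reads. Scripts were tested on simulated data.

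The 10 genes and all lists were chosen with earlier results of these data known. Of other genes, those past 2-fold the same way at both ages with at least 100 reads were named, besides family members and markers, and 1 item is not reported here. No sequencing batch is labelled.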

Additional observations from a re-analysis of the deposited data

Results flagged for a closer look

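Lpl and Cpt1b had ratios of csPIMT-/- over control on opposite sides of 1 at the 2 ages. For Lpl they were 1.51 and 0.679. For Cpt1b they were 0.962 and 1.37, and the interval of the first, from counting alone, holds 1. Once the GC trend was subtracted neither gene changed side between the ages, with 2.81 and 1.44 for Lpl and 0.692 and 0.948 for Cpt1b. Against the control of the other age both genes turned at both ages. With 1 library per group the difference between ages was not tested.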

How the results depend on the processing

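No paired analysis was possible because each group had 1 library, so no replicate number pairs samples within an age. Age is a term of the limma fit, and with genotype alone Cd36 was still the 1 member called lower. Each ratio rests on 1 pool of 5 hearts against another, and Cpt1b, with the fewest reads, had the widest interval.

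With the GC trend subtracted, ratios crossed 1 for Cd36 (1.12 and 1.11 at 2 and 6 months), Fabp3 (0.784 and 0.797), Acsl1 (1.04 at 2 months), Lpl (1.44 at 6 months) Slc27a1 (0.729 at 6 months) and Cpt1b (0.948 at 6 months). Members below 0.5 at 2 months were then 0 of 10 and above 2 were 1 of 10 (Lpl, 2.81). At 6 months the 2 of 10 below 0.5 were Cpt2 and Crat, and 0 were above 2. The median log2 ratio of the members was -0.34 and -0.39. Of the other pathway genes 4 were below 0.5 at 2 months and 4 at 6 months. Of the 14964 and 15028 genes with a GC content, 1748 and 2006 were below 0.5 and 2235 and 2141 above 2. The alternative removes by its construction what follows GC content.

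With the control of the other age the 2-month ratio was 0.584 for Lpl, 1.26 for Cpt2, 1.28 for Crat and 1.45 for Cpt1b, and the 6-month ratio 1.75 for Lpl, 0.864 for Fabp3 and 0.908 for Cpt1b. With the mean of both controls the 2-month ratios were 0.842 for Lpl, 1.09 for Cpt2, 1.12 for Crat and 1.16 for Cpt1b, and the 6-month ratio 0.988 for Fabp3. With TMM factors Crat was at 1.01 at 2 months. The median log2 ratio was 0.12 at 2 months and -0.62 at 6 months with the other control, and 21 other pathway genes were then below 0.5 at 6 months. At least 100 reads left 1724 genes above 2 at 2 months. Without length scaling Cpt1a held 96.2%, 96.5%, 94.7% and 94.7% of the reads of Cpt1a plus Cpt1b.

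In limma, 0 members, other pathway genes or genes of any kind were called lower or higher with the GC trend subtracted or without a mean trend. The smallest adjusted p was then 0.0963 and 0.0654, and at an unadjusted p below 0.05 there were 1818 lower and 2001 higher genes after the subtraction and 3448 and 2517 without a mean trend. DESeq2 called 2 of 10 members lower (Cd36, Acsl1), against 20.1% of 14847 genes. It called 8 of 61 other pathway genes higher, against 14.8%. In fits chosen after seeing the data, with genotype alone and 1 library left out in turn, the members called lower numbered 0 to 2, other pathway genes lower 3 to 10 and higher 0 to 5, and all genes lower 366 to 1882 and higher 274 to 1082. Without the 6-month control Cd36 had an adjusted p of 0.0544 in limma, and without the 2-month csPIMT-/- library Acsl1 had 0.0391.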
